A study of Homo sapiens with 6 samples.

Results

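The replication-dependent histone genes of chromosome 6 form the largest group of human genes for the core histones H2A, H2B, H3 and H4 and the linker histone H1. The genes analysed were the protein-coding genes between 25.7 and 28.2 Mb of chromosome 6 (GRCh38) whose symbol starts with H1-, H2AC, H2BC, H3C or H4C. This gave 55 genes of the 80 protein-coding genes between those bounds and of 19974 on the 23 chromosomes examined. There were 6 H1, 12 H2A, 15 H2B, 10 H3 and 12 H4 genes. The cells were labelled as neurons and had been made in culture, by a BrainPhys protocol, from progenitor cells. The starting line, KOLF2.1J, is an established line of induced pluripotent stem cells. The labels name no treatment and no second genotype. Chromatin immunoprecipitation and sequencing (ChIP-seq) was done in 2 libraries for each antibody, against CTCF and against H3K27ac, and 2 libraries were input. The values are those of 1 peak list per antibody that covers both replicates, so there was no spread between replicates, no sequencing depth and no test between groups. All cells were derivatives of 1 cell line, and shares of cell types in the culture are not given in the labels.

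Replication-dependent histone genes are short and lack introns in their coding part, and their transcripts end in a stem-loop instead of a poly(A) tail. They are transcribed mainly in S phase, when new chromatin needs histones, under the coactivator NPAT in a nuclear body called the histone locus body. H2A and H2B genes often stand head to head and share the DNA between their starts. H3K27ac is histone H3 acetylated at lysine 27, a mark of active promoters and enhancers, and CTCF binds DNA at the anchors of chromatin loops.

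A gene was counted as marked when a peak shared at least 1 bp with the gene interval extended by 1 kb on either side. H3K27ac was listed at 47 of the 55 histone genes (85.5%), and at 70.8% of all protein-coding genes. The share was 50.8% among the 6922 protein-coding genes no longer than the longest histone gene of 13229 bp, and 13.5% among 474 other genes of at most 1 kb. The median histone gene was 489 bp long, and 5 of the 55 exceeded 1 kb. A peak lay on the gene itself, without the extension, in 46 genes (69% of all protein-coding genes and 47.9% of those no longer than the longest histone gene). At least 95% of the gene interval was covered in 30 histone genes (0.481% of all protein-coding genes and 6.12% of the other genes of at most 1 kb). All 30 are at most 1 kb long, and short genes are more easily covered by 1 peak. Among genes of at most 1 kb with a peak on the gene, these were 30 of 41 histone genes (73.2%) and 54.7% of 53 others. The value attached to an H3K27ac peak is the authors'. It was read as a fold enrichment from its range and its place in the list, since no header or label names it. Its highest value per gene had a median of 15.2 within 1 kb of the histone genes and 15.7 over all marked protein-coding genes. The median was 14.6 among marked genes no longer than the longest histone gene and 13.3 among other marked genes of at most 1 kb. Counted on the gene itself the histone median was 11.8, because in 18 genes the highest peak within 1 kb lay beside the gene, often on a neighbour. A median on the gene itself was not determined for other genes. The 47 genes drew on 73 distinct peaks, of which 30 were within reach of several genes and 1 peak served at most 3. The distinct peaks had fold enrichments from 2.52 to 33.2 with a median of 6.86 (4.74 in the whole list) and a median width of 659 bp (356 bp in the whole list). No comparison here has a test, since genes of 1 locus are not replicates, and the shares and medians are descriptions of the pooled lists.

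**Figure D1:**
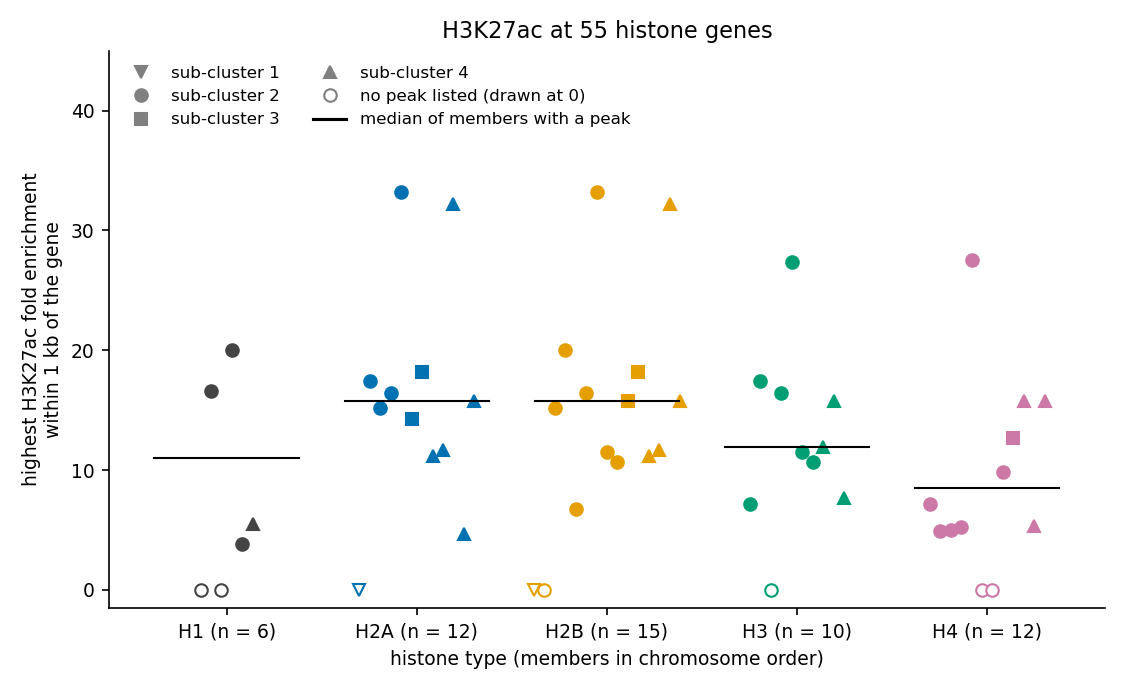
Highest H3K27ac fold enrichment within 1 kb of each of the 55 histone genes (y axis) by histone type (x axis), with the symbol showing the sub-cluster, open symbols at 0 for the 8 genes without a listed peak, and a line at the median of the genes with a peak. The medians run from 8.51 in H4 to 15.7 in H2A and H2B, and every type spans low and high genes.

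The paired H2A genes H2AC8 and H2AC15 held the highest values on the gene itself. H4C5 with 27.5 and H3C6 with 27.4 came next, above the highest H2B value on the gene, 24.3. The peak of 27.4 overlaps H3C6 but has its summit 476 bp before the start, and the peak with its summit inside H3C6 had 14.5. The median on the gene was 15.8 in H2A and 11.7 in H2B. It counts H2BC12 with 12.7, the value of the peak on H4C9, which lies in the interval of H2BC12. The peak over the start of H2BC12 had 9.96. The H2B median within 1 kb, 15.7, was higher because it also counts peaks beside the gene. H2A and H2B form the dimers that flank the H3-H4 tetramer in the nucleosome. Of 12 H2A genes, 11 were marked, and of 15 H2B genes, 13 were. The highest fold enrichment of any histone gene, 33.2, belonged to a peak from 26216875 to 26218102 on H2AC8 (chromosome 6, 26216921 to 26217437, plus strand). Its partner H2BC8 (26216200 to 26216688, minus strand) carried a separate peak from 26215426 to 26216720 with a fold enrichment of 24.3. In the pair H2AC15 (27837880 to 27838375) and H2BC15 (27838569 to 27839110), the H2A side had a peak with a fold enrichment of 32.2 and the H2B side one of 16.5. These peaks stood at percentiles 97.5 and 97.3 of the whole H3K27ac list for H2AC8 and H2AC15. At the low end of the marked genes were H2AC16 with 4.64 on the gene, H2BC10 with 5.96 and H2BC6 with 6.73. H2AC14 had no peak on the gene itself, and the 11.7 within 1 kb of it belonged to the peak on its partner H2BC14.

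Head-to-head pairs were taken as neighbouring genes transcribed away from each other with starts at most 1 kb apart. There were 10 such pairs, 9 of H2A with H2B and the pair H3C7 and H2BC9. The stretch between the starts was 193 to 247 bp in the H2A and H2B pairs and 978 bp in H3C7 and H2BC9. H3K27ac peaks were listed on both sides of 8 pairs, and in all 8 the acetylation was interrupted between the starts. Of 697 head-to-head pairs of protein-coding genes with a peak on both sides, 58.4% had such a break. The share was 58.3% among the 532 pairs with starts at most 300 bp apart. The unlisted stretch between the starts measured 154 bp in H2BC8 and H2AC8, 115 bp in H2AC15 and H2BC15, 116 bp in H2BC4 and H2AC6, and 219 bp in H2BC11 and H2AC11. The peaks began near each start and ran over the gene, and the shared promoter lay partly or almost wholly outside them. In H2AC7 and H2BC7 the fold enrichment was 16.4 on the H2A side and 9.55 on the H2B side, with 133 bp unlisted between the starts. H2AC17 and H2BC17 were nearly equal, with 14.3 and 15.7 and 157 bp unlisted. H2BC4 had 13.6 and H2AC6 had 15.2, and H2BC11 had 14.3 and H2AC11 had 11.9. Neither histone was the higher one throughout these pairs. In H2BC13 and H2AC13 the H2B side had 10.9, and the H2A side had a short peak of 4.50 at the start and one of 11.2 over the end of the gene. H2BC12 and H2AC12 were not counted as a pair because H2AC12 has no start in the table used. Their neighbouring peaks ended at 27146887 and began at 27147078. The other 2 pairs were H2AC1 and H2BC1, without any peak, and H2AC14 and H2BC14, with peaks on the H2B side alone.

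**Figure D2:**
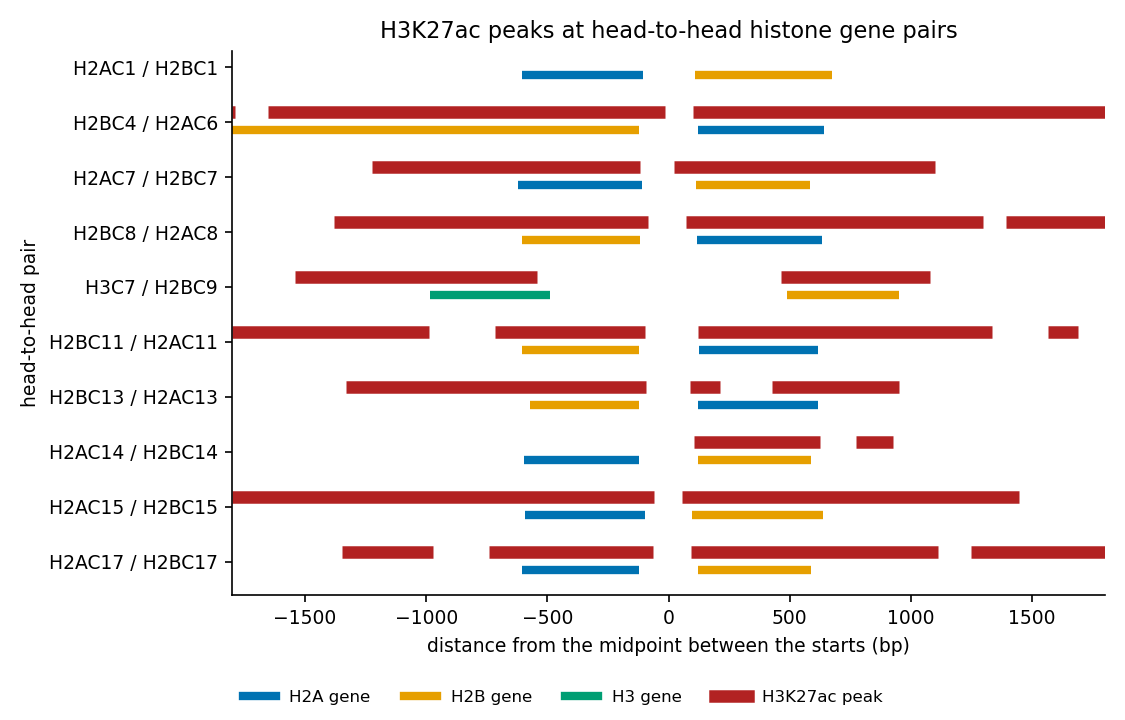
H3K27ac peaks (red) and gene intervals (blue H2A, orange H2B, green H3) at the 10 head-to-head pairs, placed by distance in bp from the midpoint between the starts (x axis), 1 pair per row. In 8 pairs a peak lies on each gene and the stretch between the starts is at least partly free of peaks.

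The DNA between the starts is shown for 3 pairs, the pairs with the highest acetylation, where the break falls in this stretch, and the pair H2AC1 and H2BC1, without peaks and so without a break. It is printed between the starts on the plus strand from RefSeq (GRCh38.p14). H2BC8 and H2AC8 flank chr6:26216689-26216920, H2AC15 and H2BC15 flank chr6:27838376-27838568, and H2AC1 and H2BC1 flank chr6:25726563-25726776. Capitals mark, on either strand, TATAAA (the TATA box), CCAAT (the CCAAT box) and ATTTGCAT (the octamer, a sequence bound by OCT1, the product of POU2F1).
H2AC8: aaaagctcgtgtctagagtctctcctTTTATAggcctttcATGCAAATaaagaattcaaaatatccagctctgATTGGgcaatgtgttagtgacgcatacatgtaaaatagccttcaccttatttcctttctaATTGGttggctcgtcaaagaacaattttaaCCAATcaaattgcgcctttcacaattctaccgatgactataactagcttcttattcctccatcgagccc
H2BC15: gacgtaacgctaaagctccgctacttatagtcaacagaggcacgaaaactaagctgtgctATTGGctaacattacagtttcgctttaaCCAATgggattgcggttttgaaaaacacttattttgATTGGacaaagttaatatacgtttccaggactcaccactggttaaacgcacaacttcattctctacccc
H2BC1: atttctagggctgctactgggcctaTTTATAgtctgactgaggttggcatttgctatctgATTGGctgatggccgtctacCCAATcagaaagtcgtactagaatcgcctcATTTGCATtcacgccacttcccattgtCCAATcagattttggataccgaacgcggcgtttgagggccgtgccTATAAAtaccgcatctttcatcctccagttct
The stretch of H2AC1 and H2BC1, genes known for expression in testis, held CCAAT, the octamer and the TATA box although no H3K27ac was listed there. The stretch of H2AC15 and H2BC15 held CCAAT but neither the octamer nor TATAAA in these letters.

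The promoter table gave 1 or more starts for 50 of the 55 genes, and H4C1, H4C3, H2AC12, H3C11 and H3C12 were left out of counts that need a start. H3C4 is annotated with the same outermost start as H2AC7. Motifs were counted from 250 bases before to 50 after the start. CCAAT or its complement stood in all 6 H1, all 11 H2A, all 15 H2B and all 8 H3 promoters, but in 3 of 10 H4 promoters (36.4% of all protein-coding promoters). The octamer ATTTGCAT stood in 9 of 11 H2A and 12 of 15 H2B promoters, in 1 of 8 H3 promoters, that of H3C4, and in 0 of the H1 and H4 promoters (1.72% of all). The promoters of a head-to-head pair overlap, so an octamer is often counted for both genes, and CCAAT or TATAAA can be too. TATAAA stood in 8 of 11 H2A, 11 of 15 H2B, 5 of 8 H3, 6 of 10 H4 and 3 of 6 H1 promoters (9.75% of all). Both H2BC8 and H2AC8 were counted, although the match printed between them lies near the start of H2BC8.

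Coverage was also read around each start, paired or not. Of the 50 genes with a start, 42 had an H3K27ac peak within 1 kb of it (63.8% of all protein-coding genes with a start). A position 100 bp before the start was covered by a peak in 8 of these 42 (19.0%), against 49.5% of all genes with such a peak. The low coverage was uneven. Among the 18 of these genes that belong to head-to-head pairs 1 was covered there (5.56%), and among the 24 others 7 were (29.2%). By type 1 of 10 H2A, 1 of 13 H2B and 1 of 7 H3 genes were covered, but 3 of 8 H4 and 2 of 4 H1 genes, shares nearer to that of all genes. At 250 bp after the start, 38 of 42 (90.5%) were covered, and 87.5% of all genes were. Within 250 bp of the start on either side, coverage of the histone genes was lowest at 16.7%, between 100 and 150 bp before the start, and that of all genes was lowest at 48.3%, at 75 bp before it. Peaks often began at the start: the 5′ edge of a peak lay within 50 bp of it in 23 of 42 histone genes (54.8%) and in 33.3% of all genes with a peak within 1 kb of the start. In the paired genes it was 13 of 18 (72.2%) and in the others 10 of 24 (41.7%), among them H3C4 with the start of H2AC7. By type these were 11 of 13 H2B, 7 of 10 H2A, 4 of 7 H3, 1 of 8 H4 and 0 of 4 H1 genes. The edge lay 8 bp before the start in H3C1 and H2BC6, 9 bp before it in H2BC10, 17 bp in H2BC14 and 25 bp in H2BC9. Farther out, at 1625 bp before the start, 28.6% of the 42 histone genes and 7.74% of all genes were covered. Which of these stretches are peaks of neighbouring histone genes was not tested.

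**Figure D3:**
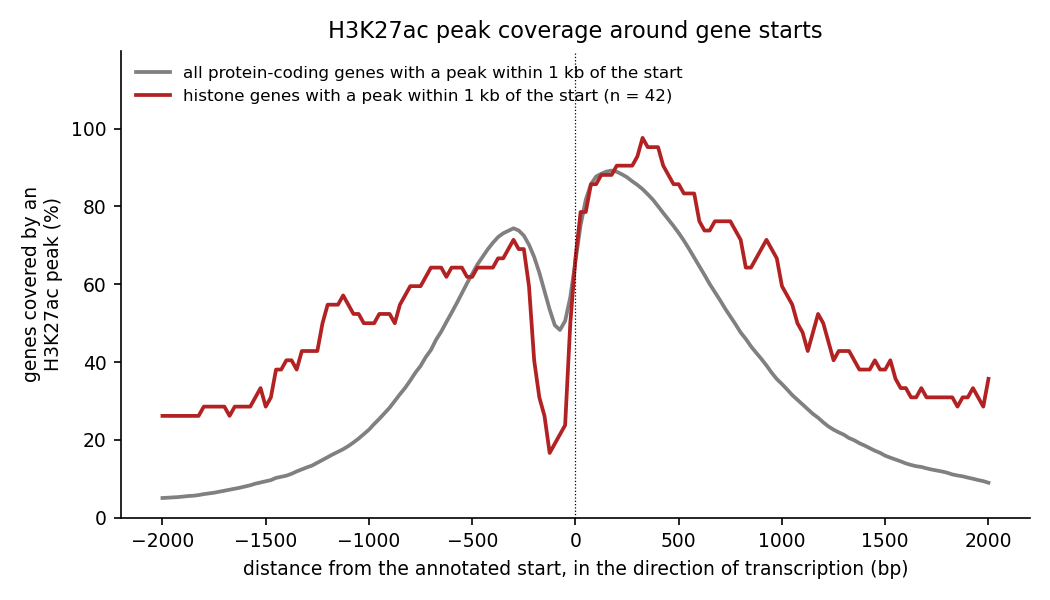
Share of genes covered by an H3K27ac peak (y axis, %) by distance from the annotated start in the direction of transcription (x axis, bp), for the 42 histone genes (red) and all protein-coding genes (grey) with a peak within 1 kb of the start. The histone curve falls to 16.7% between 100 and 150 bp before the start, below the grey curve, and both curves are near 90% soon after it.

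A position 250 bp after the start was uncovered in 4 of the 42 genes, H2AC13, H2AC14, H4C11 and H4C12. These 4 are the members of the pairs of distinct starts with the most similar promoters. The 8 genes without any H3K27ac peak were uncovered there too, and none of them belongs to these pairs. H2AC14 had no peak on the gene itself. The 300-base windows of H4C11 and H4C12 were identical at 295 positions (98.3%) and those of H2AC13 and H2AC14 at 252 (84.0%), whereas the next pair, H4C5 and H4C8, reached 61.3%. How reads that match several places were treated is not given in the sources used here, and the part of sequence identity in these gaps was not tested. The windows compared end 50 bases after the start and do not reach the uncovered position.

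The linker histone H1 binds the nucleosome where DNA enters and leaves it. H1-4 (26156329 to 26157115, plus strand) had 20.1 in a peak of 2450 bp that covered the whole gene. H1-2 (26055740 to 26056470, minus strand) had 16.6 in a peak of 1530 bp. H1-5 (27866792 to 27867588, minus strand) had 5.48, and H1-3 (26234212 to 26234987, minus strand) had 3.79 in a peak of 289 bp over 37.2% of the gene. H1-1 (26017032 to 26017787) and H1-6 (26107412 to 26108135), the latter known as the testis H1, had no peak within 1 kb. H1-2 and H1-4 therefore stood well above H1-3 and H1-5, and all of these values come from a single list. All 6 H1 promoters held AAACACA, the letters of the H1 box, on either strand (4.27% of all promoters). The 180 bases before the starts of the 2 most acetylated H1 genes and of H1-1 follow, 5′ to 3′ on the gene's strand, from chr6:26156149-26156328, chr6:26056471-26056650 and chr6:26017788-26017967. Capitals mark AAACACA of the H1 box, the CCAAT box and the TATA box, on either strand.
H1-4: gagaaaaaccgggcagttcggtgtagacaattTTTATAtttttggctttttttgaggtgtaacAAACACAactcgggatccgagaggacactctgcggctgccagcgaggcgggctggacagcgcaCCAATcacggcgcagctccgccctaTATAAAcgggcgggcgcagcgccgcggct
H1-2: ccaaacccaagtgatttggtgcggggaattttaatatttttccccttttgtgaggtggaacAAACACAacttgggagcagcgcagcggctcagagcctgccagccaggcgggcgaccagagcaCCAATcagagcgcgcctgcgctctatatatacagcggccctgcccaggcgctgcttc
H1-1: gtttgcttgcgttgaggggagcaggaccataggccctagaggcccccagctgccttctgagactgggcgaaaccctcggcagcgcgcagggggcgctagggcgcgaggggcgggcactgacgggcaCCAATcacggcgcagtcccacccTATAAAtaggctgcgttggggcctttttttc
In H1-1 the AAACACA match lies outside the stretch printed, and a CCAAT box and a TATA box stand near the start as in H1-4. The peaks of H1-2 and H1-4 differed from most of the others in covering the promoter too, with edges 557 and 904 bp before the start.

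Histone H3 carries the lysine that H3K27ac marks. Of 10 H3 genes, 9 were marked, and their values on the gene ranged from 2.52 to 27.4 with a median of 7.71. The highest belonged to H3C6 (26224178 to 26227473), where a peak from 26222507 to 26224960 covered the start. The summit of that peak lay 476 bp before the start, and a second peak, of 14.5, had its summit inside H3C6. H3C4 (26196784 to 26199293) followed with 16.4, but its interval contains H2AC7 and the value is that of the peak on H2AC7. A separate peak of 6.78 lay from 26196804 to 26197297, at the other end of H3C4. H3C11 had 15.7, H3C10 had 11.9, H3C12 had 7.71 and H3C1 had 7.18. The values on H3C7 (4.28), H3C2 (3.79) and H3C8 (2.52) were low, although peaks of 11.5, 17.5 and 10.7 lay within 1 kb, on H2BC9, on H2AC4 and between H3C8 and H2BC10. H3C3 (26045384 to 26045869) had no peak.

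H4, the partner of H3 in the tetramer, had 10 of 12 genes marked and the lowest median among the core histones, 5.85 on the gene. Single values ranged from 3.14 to 27.5, so that the lowest was above the lowest of H3 and the highest above the highest of H3 and H2B. H4C5 (26204610 to 26205021, plus strand) stood apart with 27.5 in a peak of 2946 bp, the widest at any histone gene. H4C11 had 13.7, H4C9 had 12.7 and H4C8 had 9.84. H4C1 had 6.36, H4C12 had 5.34, H4C4 had 5.28, H4C3 had 4.99 and H4C2 had 4.88. The peaks of H4C11 and H4C12 covered only 18.3% and 27.4% of the gene, and their summits lay beyond its end. H4C13 had only 3.14 on the gene, and the 15.7 within 1 kb of it belonged to the peak on H3C11. H4C6 (26240393 to 26240793) and H4C7 (26246611 to 26246996), which are neighbours, had no peak within 1 kb.

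GGTCCG, letters of the H4 promoter element known to be bound by HINFP, stood in 9 of 10 H4 promoters, in 1 of 8 H3 promoters, that of H3C7, and in 0 of the H1, H2A and H2B promoters (14.5% of all promoters, both strands). The 100 bases before the start are shown for the H4 gene with the highest value, for H4C2 with a low one, for the near-identical H4C11 and H4C12, and for the unmarked H4C6 and H4C7. They run 5′ to 3′ on the gene's strand, from chr6:26204510-26204609, chr6:26027284-26027383, chr6:27823992-27824091, chr6:27831561-27831660, chr6:26240293-26240392 and chr6:26246997-26247096. Capitals mark GGTCCG and the TATA box, on either strand.
H4C5: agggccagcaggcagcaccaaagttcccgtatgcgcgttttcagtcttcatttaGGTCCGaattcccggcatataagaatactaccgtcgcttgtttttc
H4C2: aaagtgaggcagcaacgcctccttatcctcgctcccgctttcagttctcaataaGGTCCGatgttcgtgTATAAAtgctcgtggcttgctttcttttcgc
H4C11: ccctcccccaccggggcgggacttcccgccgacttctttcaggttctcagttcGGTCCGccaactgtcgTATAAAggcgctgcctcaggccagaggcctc
H4C12: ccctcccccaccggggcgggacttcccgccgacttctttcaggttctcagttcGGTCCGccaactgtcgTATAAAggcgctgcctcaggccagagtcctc
H4C6: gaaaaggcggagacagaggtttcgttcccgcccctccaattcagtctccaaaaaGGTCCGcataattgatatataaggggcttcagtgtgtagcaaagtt
H4C7: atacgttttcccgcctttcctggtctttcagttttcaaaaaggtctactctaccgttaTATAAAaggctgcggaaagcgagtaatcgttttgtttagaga
GGTCCG was found in the unmarked H4C6 as well as in H4C5, and H4C7 was the H4 promoter without it.

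Genes without a peak were spread over all types. Beside H2AC1 and H2BC1, H1-1 and H1-6, H3C3, H4C6 and H4C7, the list lacked a peak at H2BC3 (26043227 to 26043713), a neighbour of H3C3. All 8 lay in the first 2 of the sub-clusters described next, and none of them had a CTCF peak.

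Members separated by at least 200 kb were placed in different sub-clusters, which gave 4. Sub-cluster 1 held only H2AC1 and H2BC1, and neither mark was listed there. After a gap of 290 kb, sub-cluster 2 ran over 269 kb from H1-1 to H4C8 with 32 genes, of which 26 were marked. Sub-cluster 3, from H2BC11 to H2AC12, held 5 genes in 15.2 kb, 847 kb farther on. Sub-cluster 4, from H2BC13 to H2BC17, held 16 genes in 86.4 kb after another 660 kb. All 5 and all 16 genes of sub-clusters 3 and 4 were marked. In sub-clusters 2, 3 and 4 the marked genes had median fold enrichments of 15.2, 15.7 and 11.8. Sub-cluster 3, with only 5 genes, had values from 12.7 to 18.2, and H2BC12 and H2AC12 shared the peak of 18.2. Sub-cluster 2 ranged from 3.79 to 33.2 and sub-cluster 4 from 4.64 to 32.2. These ranges are over unequal numbers of genes, so their widths were not compared. H3K27ac peaks covered 14.3% of sub-cluster 2, 36.2% of sub-cluster 3 and 18.5% of sub-cluster 4, each with 1 kb on either side. The strongest peaks of sub-cluster 2 were gathered in a run from H4C5 over H2BC8 and H2AC8 to H3C6, and H1-3, H4C6 and H4C7 followed it with 3.79 and with no peak.

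**Figure D4:**
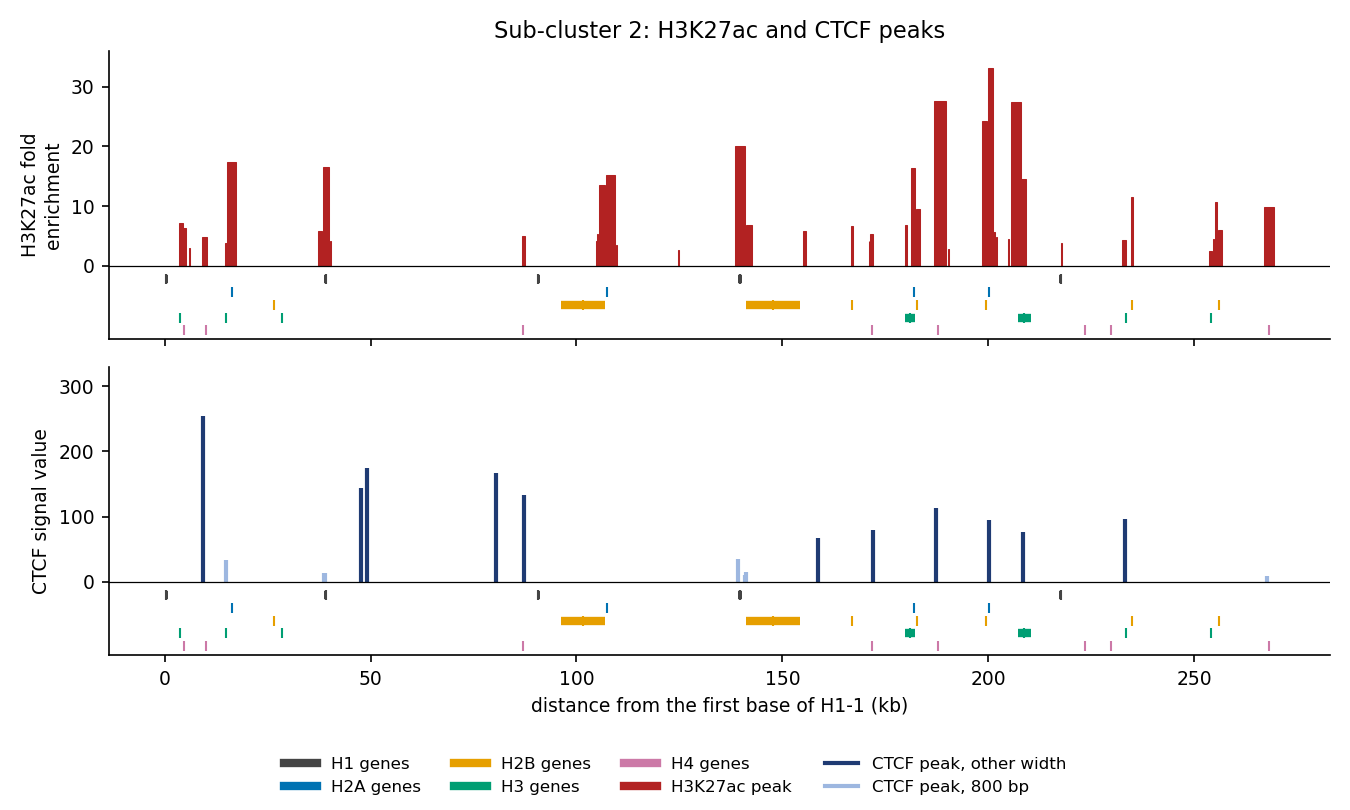
H3K27ac fold enrichment (upper panel, bar width is peak width) and CTCF signal value (lower panel, lines at summits) along sub-cluster 2 by distance from the first base of H1-1 (x axis, kb), with gene intervals below 0 by histone type. H3K27ac rises to 33.2 at H2AC8, and the highest CTCF value, 254, stands near H4C2.

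CTCF was listed within 1 kb of 21 of the 55 histone genes (38.2%), and at 60.4% of all protein-coding genes. Among genes no longer than the longest histone gene the share was 38.3%, and among the 474 other genes of at most 1 kb it was 7.38%. The histone share thus lay below, at or above the background, depending on which genes were taken. By type the numbers were 6 of 12 H4, 5 of 10 H3, 4 of 12 H2A, 4 of 15 H2B and 2 of 6 H1 genes. H4C8, H2BC5 and H1-2 were counted only through CTCF peaks with a q-value above 0.05. All 21 were also marked by H3K27ac, as were 10347 of the 12071 protein-coding genes with a CTCF peak. Both marks were thus listed at 38.2% of the histone genes and at 51.8% of all protein-coding genes. H3K27ac alone was listed at 26 histone genes. The 21 genes shared 18 distinct CTCF peaks, and all 18 overlapped an H3K27ac peak. In the whole CTCF list 28.1% did, and 40.8% of the CTCF peaks within 1 kb of a marked protein-coding gene did. Most marked protein-coding genes are longer than any histone gene, and the share at genes of like length was not determined.

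These 18 peaks were of 2 kinds. In the whole list 33.4% of CTCF peaks had a width of exactly 800 bp, and at the histone genes 10 of 18 did. The 10 had signal values from 9.49 to 50.9, and 5 of the 18 had a q-value above 0.05. The 10 peaks of 800 bp lay at H3C2 and H2AC4, H1-2 (2 peaks), H1-4 and H2BC5 (3 peaks), H4C8, H2BC11 and H2AC11, H2BC13 and H2AC13, and H3C10. The other 8 had signal values from 55.9 to 254. Without the peaks of 800 bp, 10 histone genes kept a CTCF peak, and the same share over all protein-coding genes was not determined. The signal value of the CTCF list is on a scale that is not stated, with a median of 91.0 over the list, and it was compared within that list only.

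The 8 peaks of other widths stood at named genes. The strongest, 254, ran from 26026225 to 26026675, with its summit 841 bp past the start of H4C2 and beyond the gene. H4C3 had 134 (26104015 to 26104412), with the summit inside the gene. At H4C5 a peak of 113 (26204253 to 26204650) had its summit 154 bp before the start, within the promoter and within the strong H3K27ac peak of that gene. H4C4 had 80.1, with the summit 53 bp past the start. H3C7 had 97.0 and H2AC8 had 94.4, with summits 316 and 310 bp past the start, and H3C6 had 76.5. The last, 55.9, lay on H3C11 and within 1 kb of H4C13. Of these 8 summits, 6 lay inside a histone gene, and of the 10 summits of the 800 bp peaks 5 did. How often CTCF summits near other protein-coding genes lie inside the gene was not determined.

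Between the bounds of 25.7 and 28.2 Mb the CTCF list held 73 peaks, 23 of them in the sub-clusters. The median signal value was 55.9 in the sub-clusters and 112 outside, and 47.8% against 32.0% had the width of 800 bp. Signal values of at least 150, a limit chosen after the values were seen, occurred inside sub-cluster 2 and beside sub-clusters 2, 3 and 4. The peaks inside sub-cluster 2 were the one of 254 near H4C2 and those of 175 and 167, which lay within 1 kb of no histone gene. The nearest such peak outside was 4.84 kb before sub-cluster 3 (signal 274) and 1.56 kb after sub-cluster 4 (signal 240). Sub-cluster 2 had such a peak 13.5 kb before (signal 183) and 36.4 kb after it (signal 194), both below the 254 inside it. Farther before sub-cluster 2, from 25992410 to 25992927, lay the highest CTCF peak between the bounds (signal 308). Around H2AC1 and H2BC1 the nearest peaks of at least 150 were 169 kb before (signal 264) and 215 kb after (signal 177). The nearest CTCF peaks of any value were 5.29 kb before these genes (signal 92.0) and 61.0 kb after (signal 36.8). On the other sides the distance was 30.1 kb after sub-cluster 3 (signal 165) and 14.7 kb before sub-cluster 4 (signal 173). Sub-cluster 3 itself held 1 CTCF peak, of 39.9.

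**Figure D5:**
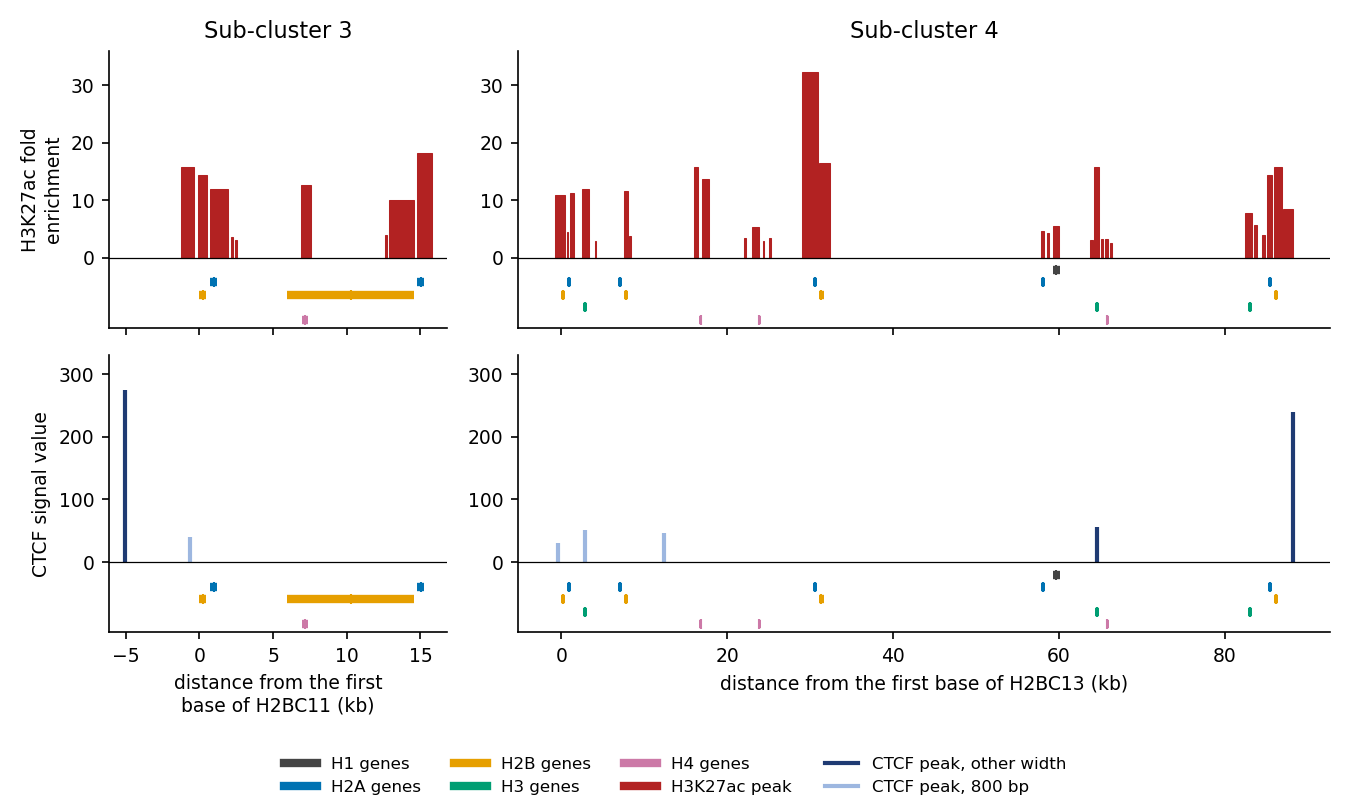
The same plot for sub-clusters 3 and 4, by distance from the first base of H2BC11 and of H2BC13 (x axes, kb), with H3K27ac fold enrichment above and CTCF signal value below. CTCF peaks of 274 and 240 stand just outside the sub-clusters, and those inside have values of at most 55.9.

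Lists of related genes were read with the same window of the gene and 1 kb on either side. Their genes are mostly far longer than the histone genes, with median lengths from 3472 bp in the variant histones to 71816 bp in the neuron markers, and a longer window can hold more peaks. Their counts and highest values are therefore given as descriptions and are not compared with those of the histone genes, except for the histone genes elsewhere, whose median length was 510 bp. All 14 genes for transcription and processing of histone transcripts were marked by H3K27ac, from ERI1 with 6.0 to CPSF2 with 58.5 and a median of 12.7. NPAT had 24.2, SLBP, which binds the stem-loop of histone transcripts, had 46.9, POU2F1 had 36.4 and HINFP had 12.7. All 10 genes of variant and replacement histones, which are transcribed outside S phase too, were marked, with a median of 23.1, from H2AJ with 7.29 to H3-3A with 56.4. Of 15 replication-dependent histone genes elsewhere in the genome, 11 were marked, with a median of 14.1.

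The culture's cell types bear on genes that are transcribed in S phase. All 12 neuron markers (median fold enrichment 17.4) and all 8 neural progenitor markers (median 35.4) had an H3K27ac peak. Of 10 genes of DNA replication and proliferation, 9 were marked, with a median of 6.86, from MCM3 with 3.46 to PCNA with 21.3, and MKI67 had no peak. Of 4 astrocyte markers 3 were marked (AQP4 was not), and of 4 pluripotency markers 2 were (POU5F1 and NANOG were not). Whether acetylation at the histone genes came from dividing or from non-dividing cells of the culture was not tested, since a pooled list cannot tell the share of cells with a mark from its amount per cell.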

How the data were processed

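Positions came from 2 deposited peak lists of 10 columns, 1 per antibody, each for both replicates. Per the submitters' processing notes, cutadapt 1.16 and build hg38 were used. The aligner, the peak caller, the treatment of reads with several matches and the depth are not given in the sources used here. The signal of the CTCF list is deposited by the authors on an unstated scale. The H3K27ac column was read as the authors' fold enrichment (a ratio), judged from its values. In both deposited lists a column of −log10 q and a column of scores, capped at 1000, stand beside these values.

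Gene intervals were those of RefSeq GRCh38.p14, and starts and promoter letters those of its promoter table, with the outermost start per gene. Overlap meant at least 1 bp. Python 3.11.15 and pandas 2.3.3 were used, and the overlap code was tested on simulated intervals. No test was run, as no spread between samples is available. The genes and lists were chosen with earlier results of these data known. Every member could be named. Values were given for all H1 genes, for genes with a CTCF peak or without an H3K27ac peak, and for the highest and lowest of each type. Further members and comparison genes were added after their values were seen, as were the counts at starts and in head-to-head pairs and the letters AAACACA. Alternatives were other windows, stricter lists, summits, promoter windows, other gaps and other background genes.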

Additional observations from a re-analysis of the deposited data

How the results depend on the processing

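No paired analysis was possible because each list covers both replicates together, and leaving out replicates was not run for the same reason. Counting error and depth cannot be given for these lists. Of 34 alternatives, 22 kept the value or stayed within 1.5 times of a count, and 12 did not. The number of genes marked by H3K27ac (47) lay between 38 (promoter window alone) and 47 in all of its alternatives. Only the 50 genes with a start have a promoter window. The number with CTCF (21) was 12 without the extension of 1 kb. It was 6 in the 50% of CTCF peaks with the highest signal and 10 without the width of 800 bp. For these CTCF counts and for the promoter window the share over all protein-coding genes was not determined. The median fold enrichment (15.2) was 11.8 without the extension, 14.3 with 0.5 kb, 12.7 for summits inside the window and 6.86 over distinct peaks, where a peak shared by neighbours counts once. The background share for H3K27ac (70.8%) was 50.8% among genes no longer than the longest histone gene and 13.5% among other genes of at most 1 kb. For CTCF (60.4%) these were 38.3% and 7.38%. The number of genes with a peak edge at the start (23) was 13 with a tolerance of 25 bp, where all genes fell to 19.6%. The cause of these moves beyond their construction was not tested.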

Other observations

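Other parts of the same region and of the histone gene family carried H3K27ac too. The H3K27ac list held 152 peaks between the bounds, of which 73 lay within 1 kb of a histone gene. Of the other 79, 26 lay within 1 kb of another protein-coding gene, 31 within 1 kb of a tRNA gene only and 22 near neither. The strongest peak between the bounds was not at a histone gene: it ran from 26536260 to 26539100, overlapped the window of HMGN4, a gene for a nucleosome-binding protein, and had a fold enrichment of 40.2. The region holds 100 annotated tRNA genes, and 30 of them had an H3K27ac peak within 1 kb (30.0%), against 170 of the 343 tRNA genes elsewhere (49.6%). Of the 25 other protein-coding genes, 15 were marked. The unmarked ones included SLC17A1, SLC17A2, SLC17A3 and SLC17A4, which encode solute transporters, and the olfactory receptor genes OR2B2 and OR2B6.

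Of 13 histone pseudogenes between the bounds, 5 had an H3K27ac peak within 1 kb, and the highest value among them, 33.2 at H3C5P, was that of the peak on H2AC8. At H4C10P (10.9), H2AC10P (10.7) and H3C9P (4.67) the highest peak lay on the pseudogene, and at H4C10P it was also the peak on H2BC13. The 4.64 near H2BC16P was that of the peak on H2AC16. Among the replication-dependent histone genes elsewhere, H2BC21, H2AC20 and H2AC21 on chromosome 1 lay within reach of a peak of 46.8, above every histone gene of chromosome 6. H2AC25 and H2BC26 had 32.1. H4C14, H3C14 and H3C15 on chromosome 1 and H2BC12L on chromosome 21 had no peak. H4C16 on chromosome 12 had 2.97.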
